A study of Mus musculus with 32 samples.

Results

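Midbrain (Mb) libraries of double knockout embryos with a cranial defect (DKO_CD, n = 3) were compared with Mb libraries of wild-type embryos (WT, n = 6). These 9 libraries belong to a series of 32, in which forebrain (Fb) and Mb tissue of embryonic day 9.5 mouse embryos of the B6C3F1 strain was sequenced in 4 groups. The libraries were chosen by the column headings inside the expression files, which name a cadherin double knockout, the Mb and a replicate number. A cranial defect here means that the neural tube was closed, without exencephaly, and the Mb was elongated. The other groups were double and triple knockout embryos with exencephaly (DKO_Ex and TKO_Ex), in which the cranial neural tube had not closed. The 13344 genes that averaged at least 1 FPKM across these 9 libraries were tested, of 48576 gene identifiers in the files. FPKM are fragments per kilobase of transcript, scaled to a fixed number of mapped fragments, so that levels are already scaled for length and depth. Fold changes are differences of log2(FPKM + 1), DKO_CD minus WT, which understates the change of low genes.

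The mutant alleles limit what the comparison can separate. All of them descend from a founder that carried short deletions at the start codons of Cdh6, Cdh8 and Cdh11, and mutant embryos came from matings of triple heterozygous mice, whereas WT embryos came from matings of WT mice. Genotype and cross of origin therefore cannot be told apart. The sample labels give the DKO_CD genotype as a Cdh6 and Cdh8 double knockout, and the study's methods give it as Cdh8 and Cdh11. In 12 files of the DKO groups, the heading inside the file and the record listing it name opposite DKO groups. The headings were followed throughout, and grouping by record was an alternative. Grouped by record, the DKO groups change places, so those values compare the libraries called DKO_Ex here with WT. They use none of the libraries called DKO_CD here. Whether a library held tissue of 1 embryo or of several was not stated.

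Type II cadherins are calcium-dependent cell adhesion molecules whose members are expressed in overlapping patterns along the neural tube, and cells that carry the same members tend to stay together. The embryonic midbrain is a sheet of neuroepithelial cells that express Otx2 and, toward the isthmus at its border with the hindbrain, En1, En2 and Fgf8. Its lateral folds meet and fuse at the dorsal midline to close the tube, under surface ectoderm and beside head mesenchyme, the loose tissue from mesoderm and neural crest that later forms skull and meninges.

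The depth was estimated from the smallest steps between low FPKM values. It was 2.40 to 2.92 M fragments per library in the WT Mb and 2.47 to 2.75 M in the DKO_CD Mb, so a gene near 1 FPKM rests on a few fragments. Pairwise correlations of log2(FPKM + 1) across the tested genes, which are not independent of each other, were 0.925 to 0.946 among WT libraries, 0.936 to 0.942 among DKO_CD libraries and 0.927 to 0.942 between the groups. Reads of Y-linked genes were present in 3 of the 6 WT and 2 of the 3 DKO_CD Mb libraries. The tissue label was checked with a set of 6 Mb genes (En1, En2, Pax5, Pax7, Otx2 and Lmx1b) and a set of 5 Fb genes (Six3, Emx2, Lhx2, Rax and Hesx1). The summed level of the Mb set was 200.2 to 294 FPKM in the WT Mb and 68.3 to 105 FPKM in the WT Fb. The summed level of the Fb set was 0.457 to 13.1 FPKM in the WT Mb and 118 to 172 FPKM in the WT Fb, with the eye-field gene Rax at 0 in all 9 Mb libraries. In the DKO_CD Mb the Fb set summed to 15.5, 1.22 and 3.83 FPKM, so all 9 Mb libraries lay below the WT Fb for it. For the Mb set, all but DKO_CD replicate 2 lay well above the WT Fb. Among the 9, 2 libraries stood apart for Mb genes, and DKO_CD replicate 1 for Fb genes. WT replicate 5 had En1 at 3.57 FPKM, against 32.0 to 59 FPKM in the other 5 WT libraries, and listed Fgf8 at 0. DKO_CD replicate 2 had a summed Mb set of 106 FPKM, below every WT Mb library and close to the highest WT Fb value, 105 FPKM. Its Otx2 was at 20.2 FPKM against 63.3 to 171 FPKM in the WT Mb. Its En2 and Fgf8, at 37.6 and 16.1 FPKM, lay inside the WT Mb range, and its Fb set was low. Hoxa2, a hindbrain gene, was at 1.28 FPKM in it and at no more than 0.802 FPKM in the WT Mb. Whether the dissected pieces differed in position was not tested. DKO_CD replicate 1 had the highest Fb set sum of the 9, 15.5 FPKM, with WT replicate 5 next at 13.1 FPKM. Its Emx2 was at 11.4 FPKM against 0 to 2.31 FPKM in the WT Mb. List medians that moved by more than 1.5 times without WT replicate 5 or without DKO_CD replicate 2 are given beside the list. Medians without DKO_CD replicate 1 are not given.

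The targeted cadherins were read first. Cdh8 was at 1.14, 5.69, 3.45, 4.27, 10.1 and 4.93 FPKM in WT replicates 1 to 6 and at 1.47, 1 and 1.25 FPKM in the DKO_CD libraries. Among WT only replicate 1 was as low as the mutants, and WT replicate 5 was the highest. The log2 fold change was -1.25 (standard error 0.41) and did not pass the test (limma, adjusted p = 0.595). Cdh6 was at 3.38, 1.04, 1.79, 2.66, 3.55 and 2.41 FPKM in WT and at 1.76, 2.11 and 1.29 FPKM in DKO_CD. The 3 mutant values lay inside the WT range, with a log2 fold change of -0.31 and a 95% confidence interval of -0.92 to 0.30. Cdh11 was at 21.2, 22.9, 21.5, 17.9, 28.7 and 19.1 FPKM in WT and at 22.4, 27.2 and 16.6 FPKM in DKO_CD. The groups overlapped over nearly their whole range, and the log2 fold change was 0.00 (95% confidence interval -0.39 to 0.39). The deletions span a short stretch around the start codon, and FPKM are counted over the whole transcript, and no allele was read from these values. In the TKO_Ex Mb, labelled as lacking all 3 genes, Cdh6 stood at 0.388, 0.353, 3.10 and 0.345 FPKM, so 3 of the 4 libraries lay below every WT and every DKO_CD library. Cdh11 was at 14.5 to 16.6 FPKM in the TKO_Ex Mb, below every WT library, and Cdh8 at 0.851 to 2.32 FPKM. The DKO_CD values of Cdh6 and Cdh11 thus lay above most or all TKO_Ex values, and those of Cdh8 among them. Values at Cdh6 rest on about 26 to 43 fragments per DKO_CD library and those at Cdh8 on 11 to 19.

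**Figure D1:**
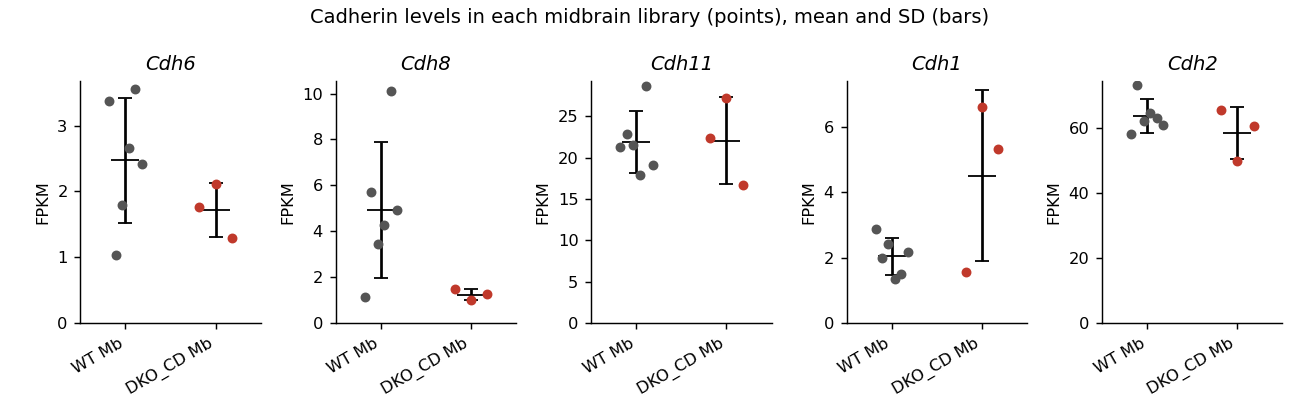
FPKM (vertical axis) of 5 cadherin genes in each Mb library of WT (grey points, n = 6) and DKO_CD (red points, n = 3), with the mean and SD as black bars. Cdh8 was 4.93 ± 2.98 FPKM in WT and 1.24 ± 0.230 FPKM in DKO_CD, and the points of Cdh6, Cdh11 and Cdh2 overlap between groups.

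Other cadherins and catenins did not pass the test either, and for Cdh1 and Ctnnd1 some DKO_CD libraries lay above every WT library. Cdh2, the N-cadherin of neuroepithelial cells, had a log2 fold change of -0.12 (standard error 0.11). Cdh1, the E-cadherin of epithelia such as surface ectoderm, was at 1.34 to 2.86 FPKM in WT (median 2.08) and at 1.57, 6.61 and 5.31 FPKM in DKO_CD. Replicates 2 and 3 lay above every WT library and replicate 1 did not (log2 fold change 0.73, adjusted p = 0.743). Of 12 type II cadherins listed, 6 passed the filter on low values, and 0 passed the test in either direction. Of all 13344 genes tested, 0.0375% passed, so a count of 0 in a short list says little. Their median log2 fold change was -0.05, beside 0.02 over all genes tested, and -0.01 without DKO_CD replicate 2. Of 15 type I cadherins and catenins, 14 passed the filter and 0 passed the test. At an unadjusted p under 0.05, 2 of the 14 were higher and 0 lower, beside 4.32% and 2.38% of all genes. Ctnnd1, the p120 catenin that binds the cadherin juxtamembrane region, had the smallest unadjusted p of the list, with 27.1 to 36.5 FPKM in WT and 49.1, 41.3 and 36.0 FPKM in DKO_CD (log2 fold change 0.42, adjusted p = 0.586).

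Between DKO_CD and WT, 5 of 13344 genes (0.0375%) differed at a Benjamini-Hochberg adjusted p under 0.05 by limma. These were 2 higher genes (0.015%) and 3 lower genes (0.0225%). At an unadjusted p under 0.05 there were 893 genes (6.69%), of which 576 (4.32%) were higher and 317 (2.38%) lower. All 3 DKO_CD libraries lay above all 6 WT libraries for 299 genes (2.24%) and below them for 152 (1.14%). Of the 5 genes, 2 encode proteins (Gsta4 and Ccdc73), 2 are processed pseudogenes (Rps3a3 and Gm26983) and 1 is a long noncoding RNA (Gm26825). No gene of the Fgf, Wnt, Hedgehog or Notch lists was among them.

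Gsta4 encodes a glutathione S-transferase that detoxifies 4-hydroxynonenal, a product of lipid peroxidation. It lies on chromosome 9 of GRCm38 (chr9:78182774-78209349, plus strand). Its level was 87.7, 75.2, 75.2, 66.4, 61.1 and 71.4 FPKM in WT replicates 1 to 6 and 35.6, 30.7 and 32.4 FPKM in DKO_CD replicates 1 to 3. Every mutant value was below every WT value, and the highest mutant and lowest WT libraries were well apart. Gsta4 fell and averaged 72.8 ± 9.08 FPKM across WT libraries (SD, n = 6) against 32.9 ± 2.47 FPKM across mutant libraries (SD, n = 3). On the log2 scale the change was -1.12 with a standard error of 0.12 (adjusted p = 0.0067 by limma). The values rest on about 155 to 215 fragments per WT library and 74 to 96 per DKO_CD library, and no 101-base window of its transcripts was shared with another gene. The call was lost in 5 of 23 alternatives, among them the fits without DKO_CD replicate 2 or 3. The log2 fold change stayed below 0 in every alternative (-1.24 to -0.75). The DKO_Ex Mb had 44.5, 38.5 and 45.2 FPKM and the TKO_Ex Mb 53.1, 37.0, 32.8 and 33.0 FPKM, all below the WT Mb. In the Fb, Gsta4 was at 78.5 to 98.1 FPKM in WT and at 64.2, 70.8 and 51.1 FPKM in DKO_CD, again without overlap. The difference between DKO_CD and WT was lower in the Mb than in the Fb by -0.65 on the log2 scale (standard error 0.16), which did not pass the test across genes (adjusted p = 0.881).

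Gm26825 is a long intergenic noncoding RNA on chromosome 5 (chr5:5781530-5783636, plus strand). It was at 17.1, 19.3, 15.4, 9.38, 7.92 and 11.9 FPKM in WT and at 0.197, 0.219 and 0 FPKM in DKO_CD. The mutant libraries held at most about 1 fragment of it, and WT libraries 42 to 106. Its log2 fold change was -3.62 (standard error 0.26, adjusted p = 0.000929). It overlaps the pseudogene Gm15459 on the opposite strand, which was at 641 to 937 FPKM in WT and 641 to 736 FPKM in DKO_CD. Other groups were read beside it. In the Fb, Gm26825 was at 8.88 to 22.1 FPKM in WT and at 0.210, 0.387 and 0 FPKM in DKO_CD. The DKO_Ex Mb listed Gm26825 at 0 in all 3 libraries, and the TKO_Ex Mb held 0.262, 0.238, 8.36 and 0.464 FPKM.

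Ccdc73 encodes a coiled-coil protein and lies on chromosome 2 (chr2:104867805-105017904, plus strand). Its level was 0.433, 0.668, 0.352, 0.285, 0.396 and 0.309 FPKM in the WT Mb and 11.6, 6.25 and 5.57 FPKM in the DKO_CD Mb, without overlap. It rose by a log2 fold change of 2.59 (standard error 0.24, adjusted p = 0.00345). In the Fb the same gene was at 0.427, 23.4, 0.805, 6.14, 0.231 and 6.46 FPKM in WT and at 19.9, 10.8 and 0.375 FPKM in DKO_CD, so both low and high libraries occurred in each genotype. The DKO_Ex Mb had 0.160, 0.700 and 13.1 FPKM and the TKO_Ex Mb 7.56, 6.81, 0.529 and 0.967 FPKM. The call was lost in 4 of 21 alternatives, among them the fit of all 4 Mb groups. The gene overlaps Eif3m, a translation initiation factor subunit on the opposite strand, which was at 99.0 to 124 FPKM in WT and at 109 to 125 FPKM in DKO_CD.

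Gm26983 is a processed pseudogene on chromosome 1 (chr1:7136199-7136586, minus strand). It was at 3.70, 2.73, 2.92, 2.93, 3.07 and 3.13 FPKM in WT and listed at 0 in all 3 DKO_CD libraries (adjusted p = 0.00327). Multiplied by the estimated depth (M fragments), the 6 WT values gave 7.39 to 8.87. In the other libraries with a value above 0, 6 gave 7.63 to 8.67 and 4 gave 12.1, 15.9, 17.6 and 26.1. The WT Mb values thus lay near the smallest value seen for this gene, and the call rests on about 1 fragment in each of 6 WT libraries and on none in 3 mutants, if that value is a single fragment. The call was lost in 4 of 21 alternatives, among them the fit of all 4 Mb groups.

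**Figure D2:**
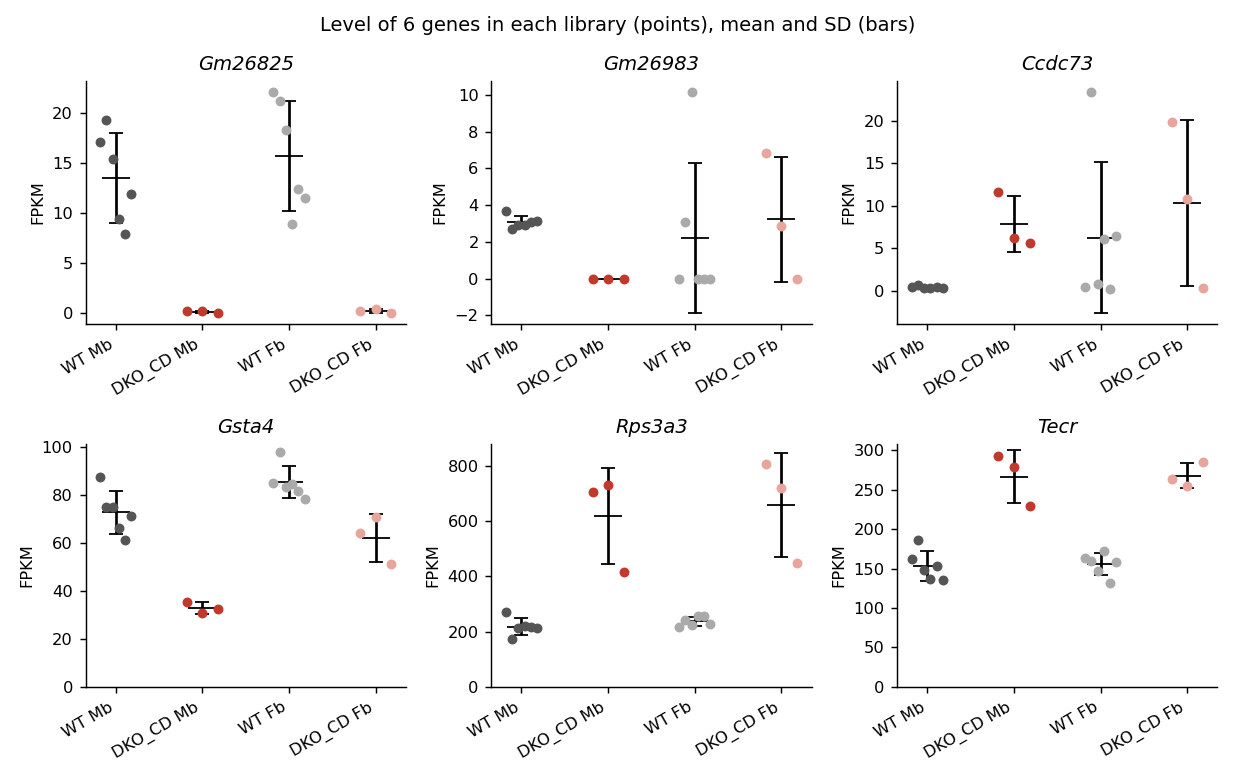
FPKM (vertical axes, separate scales) of the 5 genes that passed the test and of Tecr, in each library (points) of WT and DKO_CD, Mb and Fb, with the mean and SD as black bars. Gm26825, Gsta4, Rps3a3 and Tecr separate DKO_CD from WT in both tissues, whereas Ccdc73 and Gm26983 do so in the Mb and overlap in the Fb.

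Rps3a3 is a processed pseudogene, an intronless copy of the ribosomal protein gene Rps3a1, on chromosome 13 (chr13:108670603-108671397, plus strand). It shows how closely such copies resemble their source. In GENCODE M21 its 795 bases align to Rps3a1 without a gap and differ at 9 positions (98.9% identity). Below is the 60-base stretch within the open reading frame with the most differences, from base 201 of Rps3a3 and base 334 of Rps3a1 (transcript strand, 5′ to 3′), with capitals at the bases that differ. They are T349C and T393C, with positions counted from 1 at the 5′ end of the Rps3a1 transcript and its base given first.
Rps3a3: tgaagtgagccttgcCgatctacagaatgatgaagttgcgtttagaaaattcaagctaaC
Rps3a1: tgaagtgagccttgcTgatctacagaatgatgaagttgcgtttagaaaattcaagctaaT

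Rps3a3 was at 270, 174, 215, 221, 216 and 215 FPKM in WT and at 707, 733 and 418 FPKM in DKO_CD. The lowest mutant value was above the highest WT value. Rps3a3 rose and averaged 218 ± 30.7 FPKM across WT libraries (SD, n = 6) against 619 ± 175 FPKM across mutant libraries (SD, n = 3). The change was 1.47 on the log2 scale, with a standard error of 0.18 and an adjusted p of 0.0281 by limma. Rps3a1 itself was at 47.5 to 67.2 FPKM in WT and at 43.1, 59.7 and 62.4 FPKM in DKO_CD, overlapping fully. Rps3a2, another copy, was at 954 to 1299 FPKM in WT and at 823, 988 and 1008 FPKM in DKO_CD (log2 fold change -0.24, adjusted p = 0.743). Of the 101-base windows of Rps3a3, 31.1% also occurred in other genes, so reads of this family can be split among copies and each level is uncertain. The Rps3a3 call was the least stable of the 5, since it was lost when any of 4 WT libraries (replicates 3 to 6) or DKO_CD replicate 1 or 2 was left out. Its log2 fold change was 1.43 in the Fb (adjusted p = 0.0155, in a comparison that called 0.0378% of genes), and the DKO_Ex Mb had 410, 636 and 497 FPKM and the TKO_Ex Mb 535, 548, 541 and 678 FPKM.

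Rps25-ps1 and its source gene showed opposite differences, neither of which passed the test. The pseudogene, on chromosome 6 (chr6:145266400-145266777, plus strand), aligns to Rps25 (chr9:44407139-44410427, plus strand) over 378 bases with 4 differences (98.9% identity). The stretch with the most differences starts at base 1 of Rps25-ps1 and base 617 of the Rps25 transcript, where its reading frame starts, and holds T622G and G671A (Rps25 base first, counted from its transcript's 5′ end). A read that covers none of the differing bases cannot be assigned to 1 copy.
Rps25-ps1: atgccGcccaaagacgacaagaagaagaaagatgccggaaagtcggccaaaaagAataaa
Rps25: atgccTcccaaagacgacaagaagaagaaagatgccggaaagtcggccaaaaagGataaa

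Rps25-ps1 was at 463, 366, 318, 488, 521 and 419 FPKM in WT and at 830, 827 and 774 FPKM in DKO_CD. Rps25, a protein of the small ribosomal subunit, was at 531, 378, 400.1, 305, 319 and 291 FPKM in WT and at 220, 237 and 197 FPKM in DKO_CD. The groups did not overlap for either, with all mutants above WT for the pseudogene and below WT for the gene. The log2 fold changes were 0.93 (standard error 0.15, adjusted p = 0.112) and -0.74 (standard error 0.18, adjusted p = 0.441). The DKO_Ex Mb lay on the same side of WT for both, at 702 to 770 FPKM for the pseudogene and 166 to 211 FPKM for the gene. Rps25-ps1 passed the test in TKO_Ex against WT Mb, and in DKO_CD against WT Mb with all 4 groups in 1 fit.

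Among protein-coding genes that averaged at least 5 FPKM and did not pass the test, the 10 with the smallest unadjusted p in each direction were read. The higher ones were Tecr, Pdlim1, Tmsb15b2, Tpm4, Rps6ka3, Tmem219, Gcdh, Srp54c, Mns1 and Crtap, with log2 fold changes of 0.52 to 1.42 and adjusted p of 0.112 to 0.259. The lower ones were Ciapin1, Tada1, Abt1, Alg5, Scg5, Large2, Clcn2, Kmt2d, Shc2 and Rps25, with log2 fold changes of -1.08 to -0.48 and adjusted p of 0.179 to 0.441. Tecr, the reductase of the last step of very-long-chain fatty acid elongation, was at 162, 186, 148, 136, 153 and 136 FPKM in WT and at 293, 278 and 229 FPKM in DKO_CD. All mutant values exceeded all WT values (log2 fold change 0.79, standard error 0.12, adjusted p = 0.112). Tecr passed the test in the Fb (log2 fold change 0.78, adjusted p = 0.0155). In the Mb it passed with median-of-ratios scaling, with all 4 groups in 1 fit or without WT replicate 2. Tecr also passed against the WT Mb in DKO_Ex (limma, adjusted p = 0.0119) and in TKO_Ex (limma, adjusted p = 0.0134).

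Pdlim1, a PDZ and LIM domain protein of actin stress fibres, was at 14.8, 24.6, 14.1, 11.5, 12 and 13.3 FPKM in WT and at 30.8, 46.7 and 43.7 FPKM in DKO_CD. WT replicate 2 was high within its group, and no mutant value overlapped it. The DKO_Ex Mb had 22.1, 9.43 and 17.2 FPKM, and against DKO_Ex the log2 fold change was 1.31 (95% confidence interval 0.59 to 2.04, unadjusted p = 0.00347), which did not pass the test across genes. Tmsb15b2, a thymosin that binds actin monomers, was at 5.10 to 11.7 FPKM in WT (median 6.12) and at 20.4, 21.8 and 18.6 FPKM in DKO_CD (log2 fold change 1.42, adjusted p = 0.112). In the DKO_Ex Mb it was at 5.13, 13.6 and 16.8 FPKM. Tpm4, a tropomyosin that wraps actin filaments, was at 141 to 172 FPKM in WT (median 146) and at 220, 261 and 217 FPKM in DKO_CD (log2 fold change 0.61, adjusted p = 0.112). Without WT replicate 2, both Pdlim1 and Tmsb15b2 passed the test, with log2 fold changes of 1.53 and 1.55. With the DKO files grouped by record they were 0.07 and 0.55, and neither passed. Tpm4 passed with all 4 groups in 1 fit.

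Genes of chromosome 8 were frequent among the small p-values, an arrangement noticed after the values were seen. Cdh8 and Cdh11 lie there, at 99.0 and 102.6 Mb of GRCm38. At an unadjusted p under 0.05, 79 of 647 chromosome 8 genes (12.2%) differed between DKO_CD and WT Mb, beside 6.41% of the genes of the other chromosomes. Of the 79, 52 were higher and 27 lower, and chromosome 8 had the highest share of 20 chromosomes, followed by X with 8.62%. The share was 18.5% of 119 genes from 30 to 20 Mb below Cdh8 and 21.8% of 87 genes from 20 to 10 Mb below it. It was 9.09% of 132 genes within 10 Mb on either side and 8.42% of 202 genes more than 40 Mb below. Tecr, Gcdh, Elmod2, Tpm4 and Lpar2 lie in the first 2 of these intervals. The shares of chromosome 8 were 13.4% in DKO_CD against WT Fb, 7.28% in DKO_Ex against WT Mb and 11.1% in TKO_Ex against WT Mb, beside 8.19%, 5.37% and 8.24% of other genes and 8.44%, 5.46% and 8.38% of all genes. The Mb comparisons share their WT libraries. Between DKO_CD and DKO_Ex Mb, which come from the same kind of cross, the share was 4.96% on chromosome 8 and 6.55% elsewhere. On chromosome 15, which holds Cdh6, it was 7.71% of 493 genes.

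**Figure D3:**
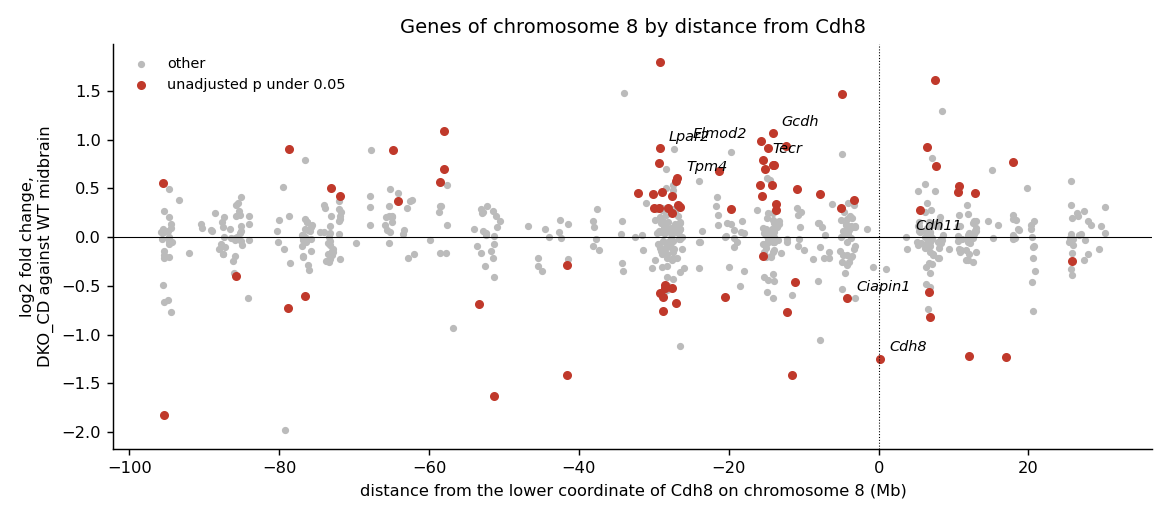
Log2 fold change between DKO_CD and WT Mb (vertical axis) of the 647 tested genes of chromosome 8 against their distance from Cdh8 in Mb (horizontal axis), with red points at an unadjusted p under 0.05. Red points above 0 are frequent from 30 to 10 Mb below Cdh8, where Lpar2, Tpm4, Elmod2, Tecr and Gcdh lie.

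Several of these genes were read by library. Gcdh, the mitochondrial glutaryl-CoA dehydrogenase of lysine breakdown, was at 4.86, 5.17, 4.49, 8.74, 6.54 and 5.28 FPKM in WT and at 15.2, 12.8 and 11.4 FPKM in DKO_CD (log2 fold change 1.07, standard error 0.19, adjusted p = 0.179). Lpar2, a receptor for lysophosphatidic acid, was at 2.30 to 2.76 FPKM in WT and at 5, 6.48 and 5.51 FPKM in DKO_CD (log2 fold change 0.92). Both separated the groups completely. Elmod2 was at 2.44 to 4.07 FPKM in WT and at 7.63, 8.51 and 6.95 FPKM in DKO_CD (log2 fold change 0.98). Ciapin1, a factor of cytosolic iron-sulphur cluster assembly, was at 46.6 to 60.2 FPKM in WT and at 31.5, 38.2 and 33.6 FPKM in DKO_CD (log2 fold change -0.62, adjusted p = 0.179). For Gcdh, Lpar2 and Ciapin1 the differences between DKO_CD and DKO_Ex were -0.06, -0.02 and -0.01 on the log2 scale, with 95% confidence intervals of -0.52 to 0.41, -0.48 to 0.45 and -0.27 to 0.25. For Elmod2 the difference was 0.37 (95% confidence interval -0.08 to 0.83). Lpar2 and Elmod2 were named after their values were seen.

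The gene groups were then read as lists. Of 30 lists, 1 was drawn from the study's own box plots, and 0 listed genes passed the test across all genes in either direction. The counts below use the unadjusted p under 0.05, which 4.32% of all genes passed as higher and 2.38% as lower.

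Head mesenchyme markers had the highest median of the lists with more than 5 tested genes. Of 19 genes listed, 12 had a mean of at least 1 FPKM, all 12 had a log2 fold change above 0 (53.4% of all genes did), and 8 had an unadjusted p under 0.05. The median log2 fold change was 0.63, beside 0.02 over all genes. Twist2, a transcription factor of skull and dermal mesenchyme, was at 1.39 to 5.94 FPKM in WT (median 2.67) and at 6.28, 9.14 and 4.34 FPKM in DKO_CD, with replicate 3 inside the WT range (log2 fold change 0.97). Alx4, a transcription factor of frontonasal mesenchyme, was at 4.10 to 6.54 FPKM in WT (median 4.61) and at 9.32, 13 and 6.82 FPKM in DKO_CD, above every WT library (log2 fold change 0.82). The chains of type I collagen, Col1a1 and Col1a2, had log2 fold changes of 0.73 and 0.67, and all mutant values lay above all WT values for both. Pdgfra, the receptor of mesenchymal growth factor PDGF-A, was at 2.71 to 5.24 FPKM in WT and at 5.69, 7.94 and 4.12 FPKM in DKO_CD (log2 fold change 0.64). Without DKO_CD replicate 2, the median was 0.43 and 3 genes had an unadjusted p under 0.05. Without WT replicate 5, the median was 0.58 and 8 did. With the DKO files grouped by record, the median was 0.16.

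In the DKO_CD Fb the median log2 fold change of the same markers was -0.28 over 14 tested genes. Of these, 0 were higher and 1 lower at an unadjusted p under 0.05, beside 8.44% of all genes in either direction. Their summed level there was 446, 712 and 745 FPKM in ascending order, against 541 to 687 FPKM in the WT Fb, so 2 DKO_CD Fb libraries lay above and 1 below every WT Fb library. In the test of the difference between the tissues, 13 of 14 genes had a value above 0 (46.5% of all genes did), with a median of 0.91, and 7 had an unadjusted p under 0.05 (2.25% of all genes did in that direction), although 0 passed the test across genes. Twist1, a transcription factor of cranial mesenchyme and neural crest, had the largest of these differences, 1.14 (standard error 0.34, adjusted p = 0.979), with 0.58 in the Mb and -0.55 in the Fb. The test between tissues took all libraries as independent. Same-numbered Fb and Mb libraries were alike in the presence of Y-linked reads in 9 of 9 pairs, and these counts leave out any such pairing. Against the DKO_Ex Mb, the median was 0.42 and 2 of 12 genes had an unadjusted p under 0.05, beside 3.43% of all genes higher.

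Summed over the 18 listed genes in the files, the head mesenchyme level was 199, 270, 169, 141, 164 and 184 FPKM in WT replicates 1 to 6 and 266, 349 and 230 FPKM in DKO_CD. The groups overlapped through WT replicate 2. In bulk tissue, more cells of a type and more RNA per cell cannot be told apart. Meox1 was under 0.5 FPKM in all 9 libraries, and 0 of the genes were at 0 in all of them. The summed surface ectoderm level (16 genes) was 45.4 to 74.5 FPKM in WT and 37.9, 142 and 107 FPKM in DKO_CD, so replicates 2 and 3 lay above and replicate 1 below every WT library. The summed neural crest level (13 genes) was 69.9 to 110 FPKM in WT and 110, 164 and 98.7 FPKM in DKO_CD. The part of these other tissues in the levels of single genes was not tested.

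**Figure D4:**
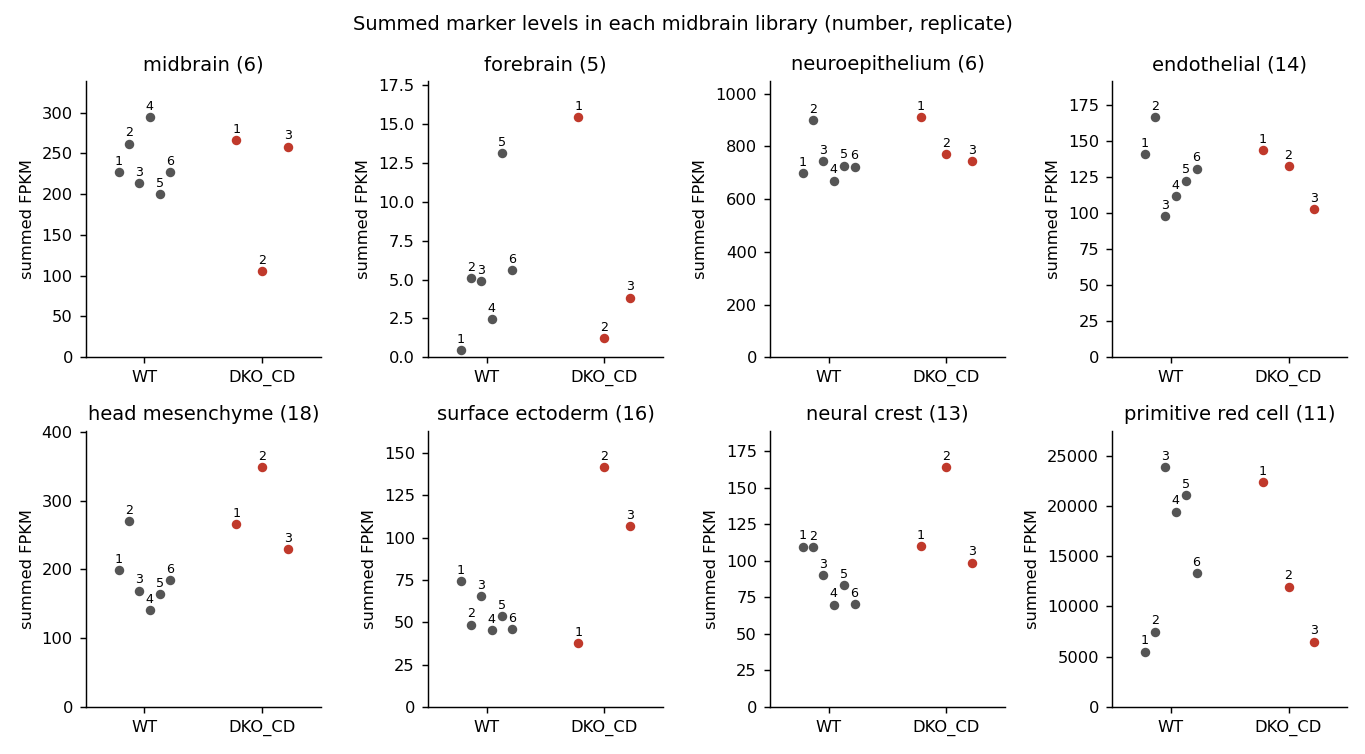
Summed FPKM (vertical axes, from 0) of marker sets for brain regions and other tissues in each Mb library of WT (grey) and DKO_CD (red), with the replicate number above each point and the number of genes in parentheses. DKO_CD replicate 2 has the lowest Mb sum, 106 FPKM, and the highest head mesenchyme, surface ectoderm and neural crest sums.

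For surface ectoderm, 11 of 16 listed genes were tested, all 11 had a log2 fold change above 0, and 2 had an unadjusted p under 0.05. The median was 0.40, 0.14 without DKO_CD replicate 2, and 0.08 with the DKO files grouped by record. Krt8, a keratin of simple epithelia, was at 6.45 to 15.9 FPKM in WT (median 10.6) and at 12.7, 32.4 and 19.7 FPKM in DKO_CD. Epcam, an epithelial adhesion molecule, was at 2.27 to 3.87 FPKM in WT and at 0.588, 5.43 and 6.47 FPKM in DKO_CD, so mutant libraries lay on both sides of WT. Krt5, Krt14 and Grhl3 were under 0.5 FPKM in all 9 libraries. For neural crest, 10 of 13 were tested with a median of 0.33, 0.07 without DKO_CD replicate 2, and -0.13 with the DKO files grouped by record. Snai1 and Twist1 were the 2 with an unadjusted p under 0.05 (log2 fold changes 0.73 and 0.58). Twist1 is also on the head mesenchyme list and Tfap2a also on the surface ectoderm list, so these lists and their sums share genes.

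**Figure D5:**
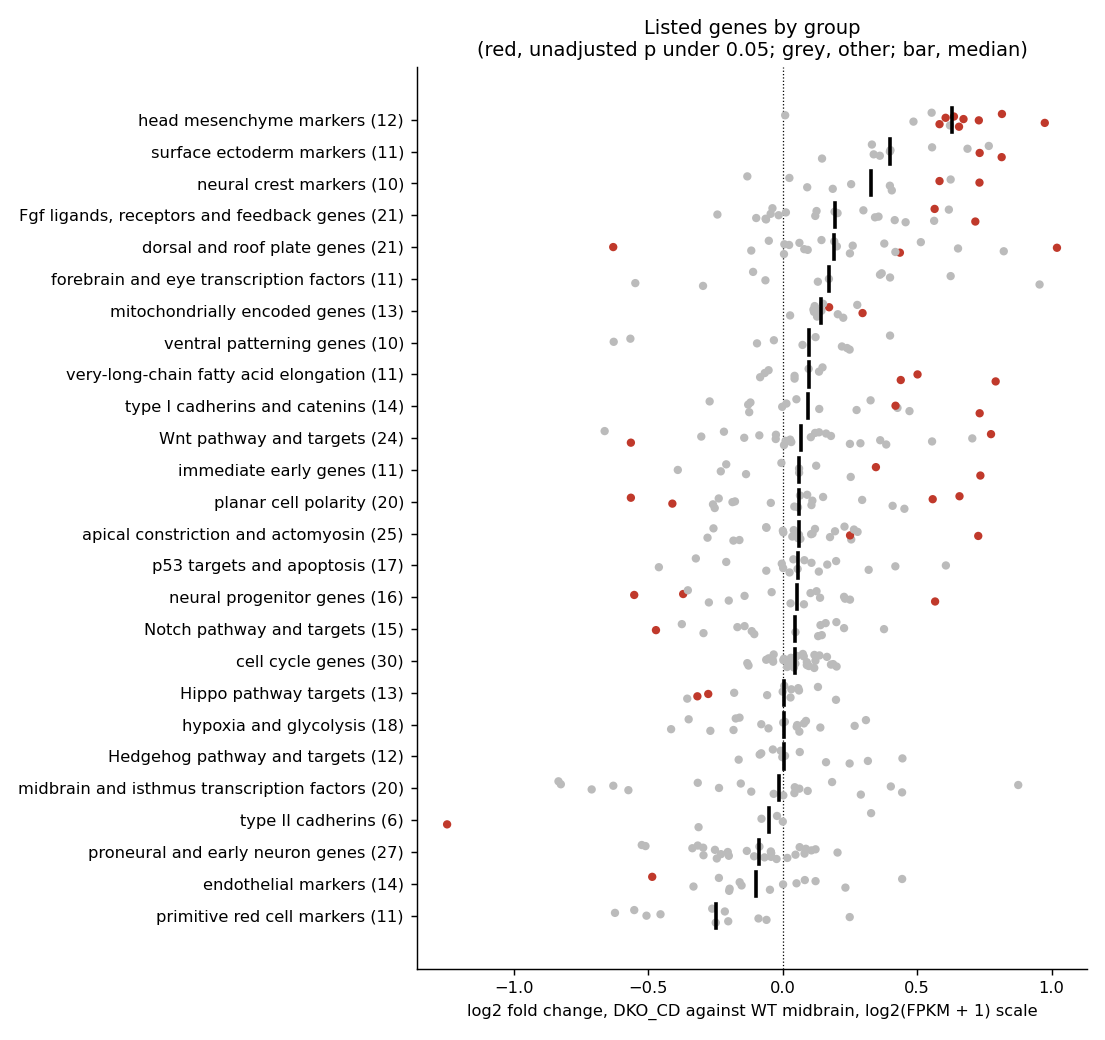
Log2 fold change between DKO_CD and WT Mb (horizontal axis, log2(FPKM + 1) scale) of every tested gene in 26 lists (rows, number tested in parentheses), with red points at an unadjusted p under 0.05 and a black bar at the list's median. The head mesenchyme median, 0.63, stands farthest above 0, and most lists centre near 0.

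Genes of the neural tissue itself showed small median differences. Among midbrain and isthmus transcription factors, 20 of 22 were tested, 10 had log2 fold changes above 0 and 10 below, and 0 had an unadjusted p under 0.05 (median -0.02). The median of this list was -0.28 without WT replicate 5 and 0.13 without DKO_CD replicate 2, so it moved with either library. En1 was at 3.57 to 59 FPKM in WT and at 25.4, 19.1 and 56.5 FPKM in DKO_CD. Cell cycle genes were tightly grouped, with 30 of 30 tested, log2 fold changes from -0.13 to 0.20 and a median of 0.05. Ccnb2, a mitotic cyclin, had the highest, and was at 36.7 to 72.4 FPKM in WT and at 65.0, 73.8 and 59.5 FPKM in DKO_CD. Of 27 tested proneural and early neuron genes, 19 had log2 fold changes below 0, with a median of -0.09, and 0 had an unadjusted p under 0.05. That median was 0.13 without DKO_CD replicate 2 and 0.02 without WT replicate 5. Among p53 targets and apoptosis genes, 0 of 17 had an unadjusted p under 0.05 (median 0.06). Without DKO_CD replicate 2, 2 were higher at that level and the median was 0.12.

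Among neural progenitor genes (16 of 16 tested), the paralogous RNA-binding proteins Lin28a and Lin28b, which block maturation of let-7 microRNAs in early embryos, had log2 fold changes below 0. Lin28b was at 35.3 to 45.7 FPKM in WT (median 40.5) and at 34.2, 27.5 and 31.2 FPKM in DKO_CD (-0.37, adjusted p = 0.512). Lin28a was at 84.1 to 173 FPKM in WT (median 133) and at 84.9, 86.9 and 83.3 FPKM in DKO_CD (-0.55, adjusted p = 0.683), at the bottom of a wide WT range. Against the DKO_Ex Mb, the log2 difference of Lin28a was -0.57 (limma, unadjusted p = 0.000207), which did not pass the test across genes. Sox9 was the 1 progenitor gene higher at an unadjusted p under 0.05, with 4.15 to 5.62 FPKM in WT and 6.32, 13.1 and 5.82 FPKM in DKO_CD.

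The dorsal midline is where the neural folds fuse, and roof plate genes mark it. Of 21 dorsal and roof plate genes, all tested, 18 had log2 fold changes above 0, with a median of 0.19, and 2 were higher and 1 lower at an unadjusted p under 0.05. Bmp4, a dorsalizing ligand, was at 0.850 to 2.95 FPKM in WT (median 1.49) and at 6.52, 4.07 and 3.19 FPKM in DKO_CD. The mutants were all above WT, on few fragments (log2 fold change 1.02, standard error 0.29, adjusted p = 0.507). Bmp6, another ligand of this family, was at 1.87 to 2.58 FPKM in WT and at 1.45, 1.26 and 0.713 FPKM in DKO_CD, all below WT (log2 fold change -0.63, adjusted p = 0.536). Msx1, a target of such signals, had a log2 fold change of 0.44, with DKO_CD replicate 2 highest at 82.2 FPKM. Wnt1, the ligand of the dorsal midline and isthmus, was at 13.7 to 25.1 FPKM in WT and at 19.9, 12.6 and 21.7 FPKM in DKO_CD. With the DKO files grouped by record, the median of the dorsal list was -0.04. It was 0.32 without WT replicate 5 and 0.11 without DKO_CD replicate 2.

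Signalling lists followed no common direction. Of 21 tested Fgf ligands, receptors and feedback genes, 14 had log2 fold changes above 0 and the median was 0.19, but -0.03 without WT replicate 5, the library without Fgf8. Fgf15, a ligand of the dorsal midbrain, was at 25.9, 26.2, 37.4, 35.5, 28.4 and 25.5 FPKM in WT and at 63.0, 30.1 and 62.0 FPKM in DKO_CD. Replicates 1 and 3 lay above WT and replicate 2 within it. Flrt2, a membrane protein that binds Fgf receptors and guidance receptors, was at 8.27 to 12.4 FPKM in WT and at 15.1, 18.3 and 15.7 FPKM in DKO_CD (log2 fold change 0.57, adjusted p = 0.458). Of the 7 box plot genes, 3 had an unadjusted p under 0.05 (Fgf15, Gcdh and Rps25-ps1), all higher, and the median was 0.39, or 0.10 without DKO_CD replicate 2. That list was chosen by the study on libraries of this series, so its direction is not independent evidence. The others were Cherp (log2 fold change 0.09), Ccn2 (-0.35), Nsg2 (-0.29) and 2410018L13Rik, which was at 4.30, 4.40 and 0 FPKM in DKO_CD against 0.906 to 1.87 FPKM in WT.

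Within the Wnt list (24 tested, median 0.07), Dkk1, a secreted Wnt inhibitor, was at 1.52 to 4.06 FPKM in WT and at 3.53, 4.98 and 7.43 FPKM in DKO_CD (log2 fold change 0.77, adjusted p = 0.614). In the Notch list (15 tested, median 0.05), the ligand Jag1 was at 20.6 to 26.9 FPKM in WT and at 20.3, 14.9 and 15.3 FPKM in DKO_CD, all below WT (log2 fold change -0.47, adjusted p = 0.507). Its difference from the DKO_Ex Mb was -0.57 (limma, unadjusted p = 0.00599), which did not pass the test across genes. For planar cell polarity, 20 genes were tested with a median of 0.06, and Dact1 and Ror1 were higher and Wnt5a and Dvl1 lower at an unadjusted p under 0.05. Wnt5a, a ligand of that pathway, was at 10.3 to 21 FPKM in WT and at 12.8, 7.93 and 10.8 FPKM in DKO_CD (log2 fold change -0.56, adjusted p = 0.700). The Hedgehog list had a median of 0.00 over 12 genes and the Hippo list 0.01 over 13, with Amotl2 and Ajuba, both junction-associated regulators of Yap, at log2 fold changes of -0.32 and -0.28. Without WT replicate 5 the medians of the Wnt, Notch, Hedgehog and Hippo lists were 0.04, 0.07, 0.07 and 0.02. Without DKO_CD replicate 2 they were 0.18, 0.05, 0.04 and 0.02.

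Genes of apical constriction and actomyosin, by which neuroepithelial cells narrow their apical side as the tube bends, had a median of 0.06 over 25 tested genes, and 0.03 without DKO_CD replicate 2. Of these, 19 were above 0 and 2 had an unadjusted p under 0.05. Myl9, a myosin regulatory light chain, was at 9.09 to 22.7 FPKM in WT (median 16.3) and at 27.9, 28.6 and 23.7 FPKM in DKO_CD, all above WT (log2 fold change 0.73, adjusted p = 0.536). Myl12a, another light chain, was at 114 to 132 FPKM in WT and at 126, 143 and 163 FPKM in DKO_CD (log2 fold change 0.25). Actb, the main cytoplasmic actin, had a log2 fold change of 0.11 (standard error 0.11).

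The very-long-chain fatty acid list included Tecr and 2 further genes at an unadjusted p under 0.05. Elovl1, an elongase, was at up to 19.5 FPKM in WT (median 14.0) and at 17.2, 21.3 and 22.3 FPKM in DKO_CD, and Hacd1, a dehydratase of the same cycle, at 18.4 to 30.8 and at 29.8, 32.6 and 39.6 FPKM. For both, 1 mutant library lay inside the WT range, whereas for Tecr none did. Over the 11 genes tested, the median was 0.10, and 0.00 without WT replicate 5. Immediate early genes, which respond within minutes to handling and stress, had a median of 0.06 over 11 tested, and -0.03 without either WT replicate 5 or DKO_CD replicate 2. Of these, Klf6 was at 6.71 to 7.65 FPKM in WT and at 9.16, 8.91 and 9.36 FPKM in DKO_CD (log2 fold change 0.35, adjusted p = 0.536). Mitochondrially encoded genes were above 0 in 13 of 13 (median 0.14, 2 at an unadjusted p under 0.05), and their summed level was 32701 to 41811 FPKM in WT and 37403 to 43791 FPKM in DKO_CD.

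The remaining cell type lists did not separate the groups. Of 14 endothelial genes, 8 had log2 fold changes below 0 (median -0.10). Flt1, a VEGF receptor, was at 2.44 to 4.72 FPKM in WT and at 2.36, 2.11 and 1.48 FPKM in DKO_CD. Of 11 primitive red cell genes, 10 were below 0 (median -0.25), and their summed level ranged from 5514 to 23902 FPKM in WT and from 6506 to 22350 FPKM in DKO_CD. Hypoxia and glycolysis genes had a median of 0.01 over 18 tested, ventral patterning genes 0.10 over 10, and forebrain and eye transcription factors 0.17 over 11. Emx2, of the last list, was at 0 to 2.31 FPKM in WT and at 11.4, 0.295 and 2.30 FPKM in DKO_CD, so the high value came from replicate 1. Of 14 hindbrain segment genes, 2 were tested, with a median of 0.02. That median was -0.01 without WT replicate 5 and -0.34 without DKO_CD replicate 2. Macrophage and sex-linked lists had 2 and 5 tested genes, with medians of 0.11 and 0.64 and 0 at an unadjusted p under 0.05. Without WT replicate 5 the other medians were -0.09 for the red cell, 0.04 for the hypoxia, 0.05 for the ventral, 0.30 for the forebrain, 0.05 for the macrophage and 0.31 for the sex-linked list. Without DKO_CD replicate 2 they were -0.24, -0.03, 0.24, 0.43, -0.13 and 0.14. With the DKO files grouped by record, the red cell median was -0.70.

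Finally, DKO_CD was compared with 2 related contrasts. In a single fit over Fb and Mb, 1 of 13397 genes (0.00746%) differed in its DKO_CD effect between tissues, the processed pseudogene Gm12013, and 647 (4.83%) had an unadjusted p under 0.05. Between DKO_CD and DKO_Ex Mb, 6 of 13338 genes (0.045%) differed, 3 higher and 3 lower, and 864 (6.48%) had an unadjusted p under 0.05. These were the processed pseudogenes or noncoding RNAs Gm10060, Snhg9, Gm20302, Gm9174, Gm12271 and Gm23472. Each was listed at 0 in some WT libraries and above 0 in others. Snhg9, a small nucleolar RNA host gene, was at 203, 70.3 and 51.5 FPKM in DKO_CD, at 0 in all 3 DKO_Ex libraries and at 173 FPKM in WT replicate 1 but 0 in the other 5. Gm10060 was at 0 in DKO_CD, at 1895, 3078 and 2121 FPKM in DKO_Ex and at 3818 FPKM in 1 WT library. With all 4 Mb groups in 1 fit, 0 genes passed between DKO_CD and DKO_Ex.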

How the data were processed

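Directional libraries of E9.5 Mb and Fb tissue were aligned by the authors to GRCm38 with TopHat2, and Cufflinks gave the FPKM per gene that they deposited; versions and annotation are not given in the sources used here. The authors' read counts and DESeq2 test were not used. FPKM of 65 repeated identifiers were summed, and 48218 of 48576 identifiers were found in GENCODE M21. Depth was estimated from single-fragment steps in 771 single-transcript genes of at least 4000 bases. Each fit used limma 3.58.1 under R 4.3.3 (lmFit, eBayes with trend) on log2(FPKM + 1) of genes averaging at least 1 FPKM, at a Benjamini-Hochberg adjusted p under 0.05, and the model was tested on simulated data. DKO_CD was compared with WT and DKO_Ex Mb in separate fits, and the tissue difference was an interaction, with all libraries taken as independent. Libraries, gene lists and tests were chosen with earlier results of these data known. Genes named were those past the threshold, the 10 smallest p in each direction among protein-coding genes of at least 5 FPKM, 5 cadherins, 7 box plot genes, the extremes of each list, and genes past the other fits; further ones by their unadjusted p or after their values were seen. Alternatives changed the pseudocount, filter, scaling, variance model, covariates, grouping and libraries. Fitting only libraries with Y-linked reads was added after seeing the data. P-values measure the spread between libraries. Transcript sequences are those of GENCODE M21 on GRCm38. Some listed genes, and the results that need them, are not reported here. Windows of 101 bases matched the read length.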

Additional observations from a re-analysis of the deposited data

Results flagged for a closer look

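Gm12013, a processed pseudogene on chromosome 11, had a DKO_CD effect in the Mb that differed from its effect in the Fb by -13.68 on the log2(FPKM + 1) scale (limma, adjusted p = 0.0018). Values of 0 were listed for the 3 DKO_CD Mb libraries and WT Mb replicate 1, and 128 to 183 FPKM for the other WT Mb libraries, whereas the Fb had 0 in all 6 WT libraries and 252, 168 and 192 FPKM in DKO_CD.

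The 6 WT Mb values of 36 genes were each examined for a library far from the other 5. It was found for 2 of the 36 genes, a share near the 1 in 20 that chance gives. Pdlim1 was at 24.6 FPKM in WT replicate 2, with the next library at 14.8 FPKM. Clcn2, a chloride channel, was at 10.8 FPKM in WT replicate 6, with the next at 8.06 FPKM.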

How the results depend on the processing

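The count of 5 genes between DKO_CD and WT Mb moved by more than 1.5 times under 5 settings. It was 2 with at least 1 FPKM in every library, 3 with a mean of at least 5 FPKM, 9 with all 4 Mb groups in 1 fit, 12 with the DKO files grouped by record and 1 with the replicate block. That 1 gene was Gm24830, so the replicate block called 0 of the original 5. The count ranged from 3 to 10 when single libraries were left out, with 10 without WT replicate 1, 8 without WT replicate 2 and 3 without DKO_CD replicate 2. Same-numbered WT and DKO_CD libraries come from different crosses and their deviations correlated at -0.16, -0.05 and -0.04, so the numbers do not pair them. Within the libraries with Y-linked reads, 5 genes were called, of which Gm26825 was also among the original 5. Grouping by record sets the libraries called DKO_Ex here against WT. There, Gm26825 and Rps3a3 were called again and Gsta4, Ccdc73 and Gm26983 were not. The log2 fold change of all 5 kept its direction in the 21 to 23 alternatives that gave a value, the grouping by record among them. For the tissue difference, the count of 1 became 5 with no filter, 0 by record and 1 with the replicate block, which treated same-numbered Fb and Mb libraries as pairs (correlations 0.03 to 0.18), and stayed 1 without any single library. For DKO_CD against DKO_Ex, the count of 6 became 3 with a pseudocount of 5 FPKM, 0 with all 4 groups and 1 with the replicate block, and ranged from 1 to 10 without single libraries. The cause of these changes was not tested. At 2.40 to 2.92 M fragments, genes near 1 FPKM rest on few fragments, and their differences were not detectable unless large.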

Other observations

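A TKO_Ex library bore on 2 of the genes above. The library labelled TKO_Ex Mb replicate 3 had Gm26825 at 8.36 FPKM and Cdh6 at 3.10 FPKM, both inside the WT Mb range, while the other 3 TKO_Ex Mb libraries had 0.238 to 0.464 FPKM and 0.345 to 0.388 FPKM. Its Rps3a3, at 541 FPKM, and Tecr, at 246 FPKM, lay above every WT Mb library.

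Some genes of chromosome X, read after their values were seen, stood higher in DKO_CD than in every WT Mb library without passing the test. Hprt, a purine salvage enzyme often used as a reference gene, was at 25.1 to 31.1 FPKM in WT and at 39.5, 38 and 40.6 FPKM in DKO_CD (log2 fold change 0.43, adjusted p = 0.394). Rps6ka3, a kinase downstream of Erk, was at 14.7 to 18.5 FPKM and at 26.6, 26.6 and 24.0 FPKM. Dusp9, a phosphatase of Erk, was at 9.82 to 17.4 FPKM and at 20.6, 31.0 and 26.0 FPKM. With the DKO files grouped by record, the log2 fold change of Rps6ka3 was 0.17 instead of 0.61, that of Dusp9 0.16 instead of 0.93 and that of Hprt 0.23. Of 464 chromosome X genes tested, 28 were higher and 12 lower at an unadjusted p under 0.05, together 8.62%. Of all genes tested, 6.69% were, with 4.32% higher and 2.38% lower. The 3 DKO_CD libraries include 2 with Y-linked reads and 1 without.

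The chaperone gene Hspa8 ranged from 131 to 309 FPKM among WT Mb libraries and was at 538, 391.7 and 541 FPKM in DKO_CD (log2 fold change 1.29, adjusted p = 0.394). Hspa8 passed the test when the Xist level was a covariate, and differed from the DKO_Ex Mb by -0.02.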
